A study of Homo sapiens with 4 samples.

Results

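GOLGB1, KTN1 and GORASP2 encode structural proteins of the Golgi and of the endoplasmic reticulum (ER). Their transcripts were followed through a YTHDF3 RNA immunoprecipitation experiment (RIP-seq) as 3 of the 3905 genes that the authors listed as enriched in at least 1 of 2 cell lines. The genes were taken by symbol, and all 3 were listed in both cell lines. They were picked because their recovery differed between the cell lines. Among 987 genes at or above the median immunoprecipitate level in both tables, GOLGB1 and KTN1 had the 6th and 10th lowest difference in log2 enrichment, SiHa minus knockout, and GORASP2 the 6th highest. Their own enrichments and levels are therefore given as a description, without a test.

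GOLGB1 encodes giantin, a very long coiled-coil golgin anchored in the Golgi membrane, which reaches into the cytoplasm and helps to hold vesicles and cisternae together with p115 and GM130. KTN1 encodes kinectin, a coiled-coil membrane protein of the ER that binds kinesin. GORASP2 encodes GRASP55, a membrane-associated PDZ-domain protein that links Golgi cisternae into stacks and ribbons and binds golgin-45. YTHDF3 is a cytoplasmic reader of the RNA mark N6-methyladenosine, and RIP-seq with its antibody compares the RNA pulled down (IP) with the RNA before the pull-down (input).

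The 4 libraries were an IP and an input from SiHa cells, a line established from a human squamous carcinoma of the cervix, and an IP and an input from SiHa labelled as YTHDF3 knockout. Each group was 1 library, so no value below has a replicate error and no difference was tested. Both IPs used the YTHDF3 antibody, and an IP with a non-specific antibody was not analysed here. How the knockout was made, and whether it is 1 clone, is not given in the sources used here. The gene targeted by the knockout was listed in SiHa at 2.14 on the log2 fold scale of the authors' deposited table and was not listed in knockout cells, which does not measure what was left of it. Of 8 epithelial and cervical carcinoma markers, 4 (KRT8, KRT18, EPCAM, CDH1) were listed in SiHa and 0 in knockout cells. Of 15 markers of fibroblasts, immune cells, endothelium and neurons, only the neuronal MAP2 was listed, in both. Over all genes tested, 27.0% were listed in SiHa and 21.2% in knockout cells. The tables hold only genes that the authors listed as enriched, so an unlisted marker has no known level.

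The log2 folds in the authors' deposited tables hold an added constant, 1.01 for SiHa and 0.81 for knockout cells, on top of log2 of the IP to input level ratio, and so differ from that plain ratio. The authors listed genes with a log2 fold of 1 or more and a p-value up to 0.05. That was 3648 of 13529 genes tested in SiHa (27.0%) and 2340 of 11034 in knockout cells (21.2%), and 2083 genes were listed in both. The 3 members were listed in both, but were chosen from that overlap. The unit of the levels is not stated and sequencing depth is unknown. The IP column of each table was taken as such because its name lacks the word input, and the lane in its name is not the one in the sample's title. This doubt holds for all IP levels.

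GOLGB1 (ENSG00000173230, GRCh38.p14 chromosome 3, 121663201 to 121749966) was recovered much more strongly from the knockout. Its input level was 21.8 in SiHa and 20.5 in knockout cells, and its IP level was 56.5 in SiHa and 223 in knockout cells. The deposited input levels were thus close to each other, while the knockout IP stood far above the other 3 libraries. Its log2 fold in the authors' deposited tables was 2.38 in SiHa and 4.25 in knockout cells, or 5.20-fold and 19.1-fold. Without the constant the level ratio of IP to input was 2.59 in SiHa and 10.9 in knockout cells. The gene moved from rank 1146 of 3648 by fold in SiHa to rank 111 of 2340 in knockout cells.

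KTN1 (ENSG00000126777, chromosome 14, 55580207 to 55684584) followed the same course. Its input level was 49.9 in SiHa and 66.8 in knockout cells, and its IP level was 156 in SiHa and 839 in knockout cells. The knockout was higher in both, but by 1.34-fold in the input and by 5.38-fold in the IP. The log2 fold in the authors' deposited tables was 2.65 in SiHa and 4.46 in knockout cells, or 6.28-fold and 22.1-fold, and the rank by fold went from 701 to 66. Without the constant the IP to input ratio was 3.12 in SiHa and 12.6 in knockout cells.

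GORASP2 (ENSG00000115806, chromosome 2, 170928477 to 170967130) stood on the opposite side. Its input level was 28.4 in SiHa and 31.3 in knockout cells, and its IP level was 75.6 in SiHa and 41.9 in knockout cells. The deposited inputs were again close, and here the SiHa IP was the highest of the 4 libraries. The log2 fold in the authors' deposited tables was 2.42 in SiHa and 1.23 in knockout cells, or 5.36-fold and 2.35-fold. The IP to input ratio without the constant was 2.67 in SiHa and 1.34 in knockout cells. By fold the gene ranked 1055 of 3648 in SiHa and 2210 of 2340 in knockout cells, where it lay 0.23 above the lowest listed log2 fold.

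**Figure D1:**
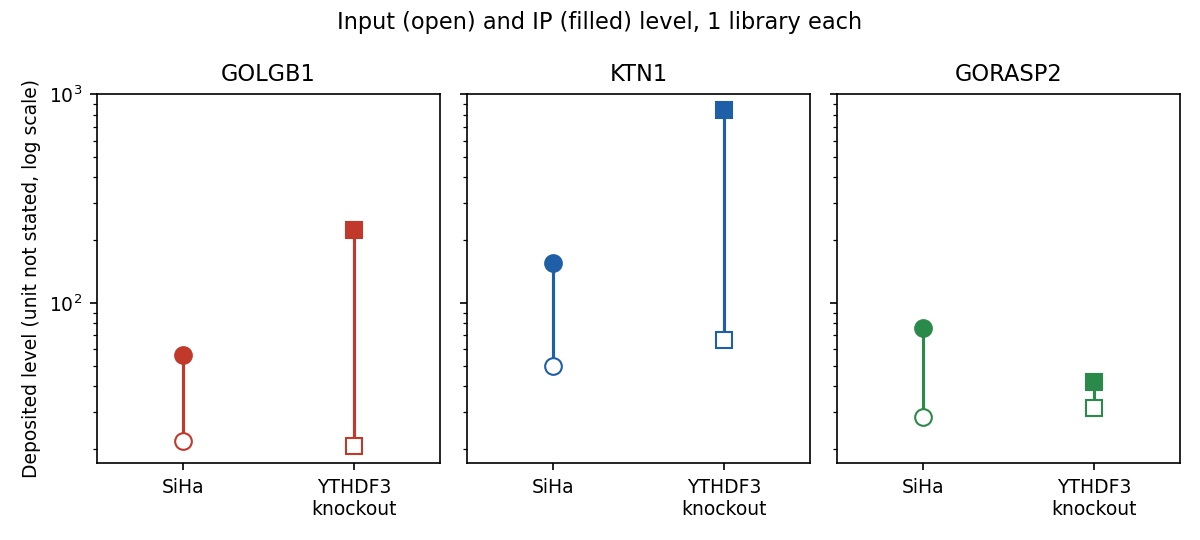
Deposited input level (open) and IP level (filled) of GOLGB1, KTN1 and GORASP2 in SiHa (circles) and the YTHDF3 knockout (squares), on a log axis in the authors' unstated unit, with 1 library per symbol. The vertical line is the gap between input and IP: it is wider in knockout cells for GOLGB1 and KTN1 and narrower for GORASP2.

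In SiHa the 3 genes were hardly apart, with log2 folds from 2.38 to 2.65 in the authors' deposited table, and in knockout cells they spanned 1.23 to 4.46. The difference in log2 fold, SiHa minus knockout, was -1.88 for GOLGB1, -1.81 for KTN1 and 1.19 for GORASP2 in the authors' deposited tables, against a median of -0.18 over the 2083 shared genes. These are a 3.67-fold and a 3.52-fold higher enrichment in knockout cells and a 2.28-fold higher enrichment in SiHa. Over all shared genes, 284 (13.6%) had at least a 2-fold higher enrichment in knockout cells and 35 (1.68%) in SiHa. Both tables hold no log2 fold under 1, so the size of a difference is bounded in both directions for genes listed in both. From its SiHa value, GORASP2 could lie at most 1.42 lower in knockout cells and still be listed.

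**Figure D2:**
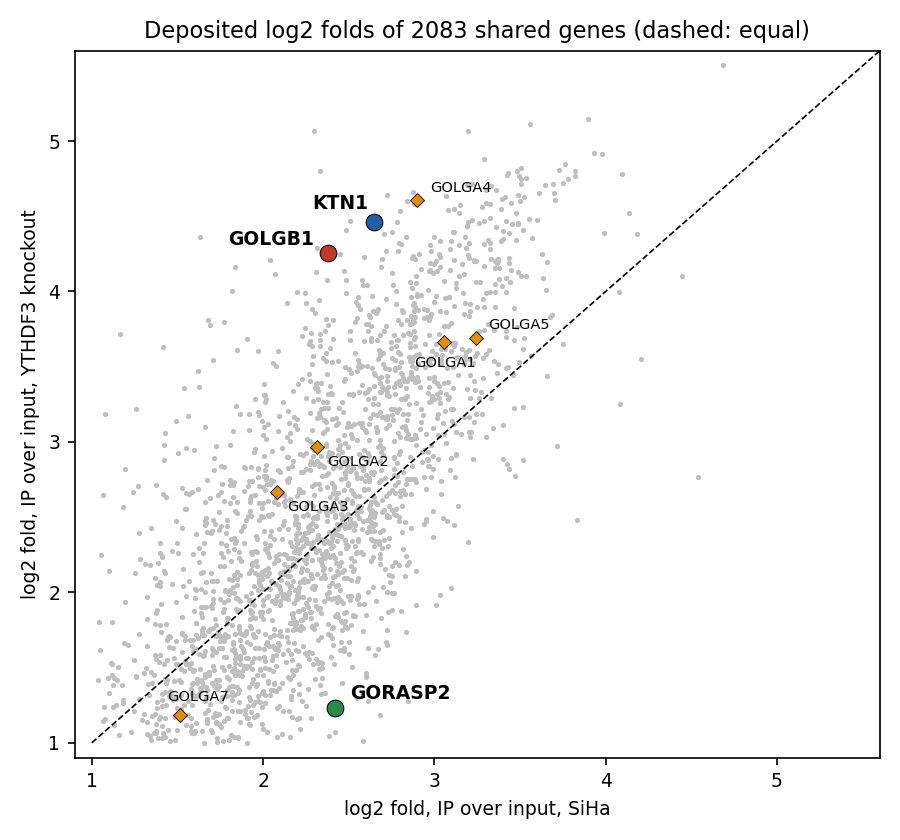
Deposited log2 fold of IP over input in SiHa (x axis) and in the YTHDF3 knockout (y axis) for the 2083 genes listed in both, with the dashed line at equal folds. GOLGB1 (red) and KTN1 (blue) lie far above the line beside GOLGA4, GORASP2 (green) lies below it, and the other GOLG genes are orange diamonds.

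The IP and input levels behind these differences were compared between the cell lines. The log2 ratio of knockout to SiHa IP level was 1.98 for GOLGB1, 2.43 for KTN1 and -0.85 for GORASP2, against a median of -0.12 and quartiles of -0.71 and 0.50 over shared genes. The IP level was higher in knockout cells for 44.6% of shared genes, and the input level for 24.7%. For the input level the log2 ratio was -0.09 for GOLGB1, 0.42 for KTN1 and 0.14 for GORASP2, against a median of -0.52 and quartiles of -1.01 and -0.01. The tables were normalised separately, and relative to these medians all 3 inputs were higher in knockout cells, by 0.44, 0.95 and 0.67 on the log2 scale. On that scale the IP level was 2.10 and 2.55 higher for GOLGB1 and KTN1, and stood at -0.73 for GORASP2. For GORASP2 the lower IP and the higher input thus had about equal parts in the difference after centring. As deposited, its ratios of -0.85 and 0.14 gave the IP the larger part. For GOLGB1 and KTN1 the centred input went against the difference, and the higher IP outweighed it. For bulk RNA, fewer cells with a transcript and less of it per cell cannot be told apart. Other differences between the IP libraries, such as depth, are unknown, and their part in the result was not tested.

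**Figure D3:**
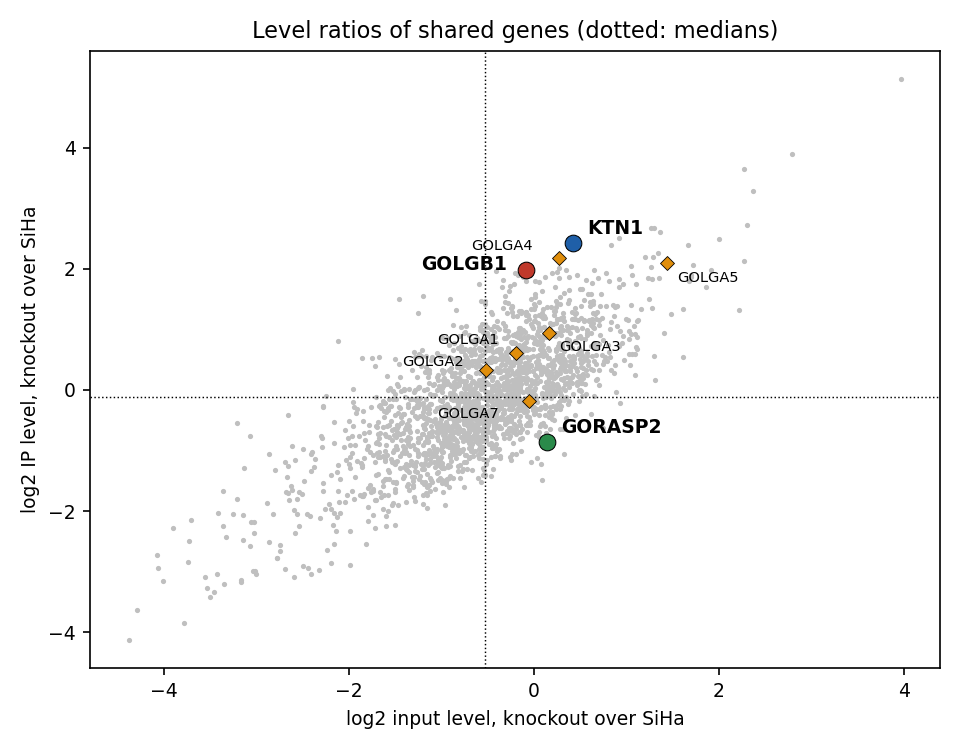
Log2 ratio of knockout to SiHa input level (x axis) against the same ratio for the IP level (y axis), 1 grey point per shared gene, with dotted lines at the medians of -0.52 and -0.12. GOLGB1, KTN1 and GOLGA4 are at the upper edge of the cloud, at input ratios of -0.09, 0.42 and 0.27. GOLGA5 has a similarly high IP ratio of 2.09, at an input ratio of 1.44. GORASP2 is below the IP median, at an IP ratio of -0.85 (rank 1660 of 2083 from the highest) and an input ratio of 0.14.

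The other golgin genes named GOLG were next compared with GOLGB1. RefSeq holds 37 protein-coding GOLG symbols, and 7 were listed, the same 7 in SiHa and in knockout cells: GOLGB1, GOLGA1, GOLGA2, GOLGA3, GOLGA4, GOLGA5 and GOLGA7. That is 18.9% of the symbols, whether tested or not. The 27.0% and 21.2% listed over all genes have only tested genes as their base, so the shares are not directly comparable. The same holds for the gene lists below. None of the multicopy GOLGA6 and GOLGA8 genes was listed (0), and reads of such near-identical copies may not be assigned to 1 gene. The enrichment was higher in knockout cells for 6 of the 7, against 60.1% of all shared genes, and at least 2-fold higher for 2, GOLGB1 and GOLGA4, against 13.6%. Without GOLGB1, which was chosen for this difference, the counts were 5 and 1 of 6.

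GOLGA4 encodes golgin-245, a tether of the trans-Golgi, and it came closest to GOLGB1. Its input level was 20.5 in SiHa and 24.7 in knockout cells, and its IP level was 76.1 and 343. Its log2 fold in the authors' deposited tables was 2.90 in SiHa and 4.61 in knockout cells, a difference of -1.71, and it ranked 43rd by fold in knockout cells. As for KTN1, the deposited levels were higher in knockout cells in both, by 1.21-fold in the input and 4.51-fold in the IP. Relative to the shared-gene medians the GOLGA4 input was 0.80 higher and its IP 2.29 higher, on the log2 scale.

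GOLGA5 encodes golgin-84, a tether within the Golgi. It had IP levels of 26.8 in SiHa and 114 in knockout cells at input levels of 5.69 and 15.5, so IP and input were both higher in knockout cells. Its log2 folds in the authors' deposited tables, 3.24 in SiHa and 3.69 in knockout cells, were correspondingly near each other.

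GOLGA1, which encodes golgin-97 of the trans-Golgi, had input levels of 7.49 in SiHa and 6.58 in knockout cells and IP levels of 31.0 and 47.4. GOLGA2, which encodes GM130, the cis-Golgi partner of giantin in tethering, had inputs of 16.9 and 11.8 and IP levels of 41.8 and 52.2. GOLGA3, the gene of golgin-160, had inputs of 8.96 and 10.1 and IP levels of 18.8 and 36.3. For these 3 the difference in log2 fold was -0.61, -0.65 and -0.59 in the authors' deposited tables, about a 1.5-fold higher enrichment in knockout cells and well short of GOLGB1.

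GOLGA7, whose small product works with a palmitoyltransferase and is not a coiled-coil tether, was the exception. It had input levels of 10.1 in SiHa and 9.74 in knockout cells and IP levels of 14.3 and 12.6, so all 4 libraries lay near each other. Its log2 folds were 1.51 in SiHa and 1.18 in knockout cells in the authors' deposited tables, and its adjusted p-value of 0.205 in the authors' deposited knockout table was above 0.05.

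A wider list of 30 golgins, their adaptors and Golgi reassembly genes had 22 members listed in SiHa and 20 in knockout cells, against 27.0% and 21.2% of all genes tested. The 20 shared genes were 90.9% of those listed in SiHa, against 57.1% of the whole SiHa list. They include GOLGB1 and GORASP2, which were chosen from genes listed in both and so are shared by that choice. With an adjusted p-value under 0.05 the counts were 18 and 17, where the authors' deposited tables hold 21.8% and 17.0% of all genes tested. Enrichment was higher in knockout cells for 17 of these 20 (60.1% over all shared genes) and at least 2-fold higher for 7 (13.6% over all). Leaving out the members, which were chosen for such differences, the counts were 16 and 6 of 18. The IP level was higher in knockout cells for 16 of the 20 (44.6% over all), and for 15 of the 18 without the members. The list's median difference in log2 fold, SiHa minus knockout, was -0.63 with or without the members, against -0.18 for all shared genes. With both tables centred on the shared genes, 16 of 20 were higher in knockout cells, against 51.1% of all shared genes. Without the members the centred count was 15 of 18.

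After GOLGB1 the lowest difference on this list belonged to CCDC186, a gene of dense-core vesicle formation and trans-Golgi tethering, whose IP level was 8.02 in SiHa and 26.8 in knockout cells at inputs of 4.47 and 3.85. Its log2 folds in the authors' deposited tables were 1.85 in SiHa and 3.61 in knockout cells, with an adjusted p-value of 0.085 in SiHa. GOLIM4, a membrane protein of the cis-Golgi, had the largest SiHa fold of the list, a log2 fold of 3.46 against 4.45 in knockout cells in the authors' deposited tables. Further golgins with long coiled coils, named after their values were seen, were TRIP11 (GMAP-210), GCC2 (GCC185), TMF1 and USO1, which encodes p115, the tether that binds giantin. Their differences in log2 fold were -1.53, -1.28, -1.04 and -1.21 in the authors' deposited tables. Other coiled-coil genes of the list lay nearer 0, with HOOK3 at -0.60, CUX1 at -0.32 and BICD1 at -0.22 in the authors' deposited tables. The value of CUX1 is for the gene and does not separate its transcripts. BICD1 had adjusted p-values of 0.068 in SiHa and 0.062 in knockout cells in the authors' deposited tables. For USO1 the input level was also higher in knockout cells, 27.6 against 11.4 in SiHa, and its IP level was 97.6 against 15.3.

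On the other side stood GORASP2 and GCC1, a peripheral golgin of the trans-Golgi, with GOLGA7. GCC1 had log2 folds of 2.75 in SiHa and 1.99 in knockout cells in the authors' deposited tables, at IP levels of 9.84 and 8.70, with an adjusted p-value of 0.084 in the deposited knockout table. GORASP2 was the gene with the highest difference among the 20. Its paralog GORASP1 (GRASP65) and BLZF1, the gene of golgin-45, were listed in neither table. BICD2, an adaptor of the dynein motor, was listed in SiHa and not in knockout cells.

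**Figure D4:**
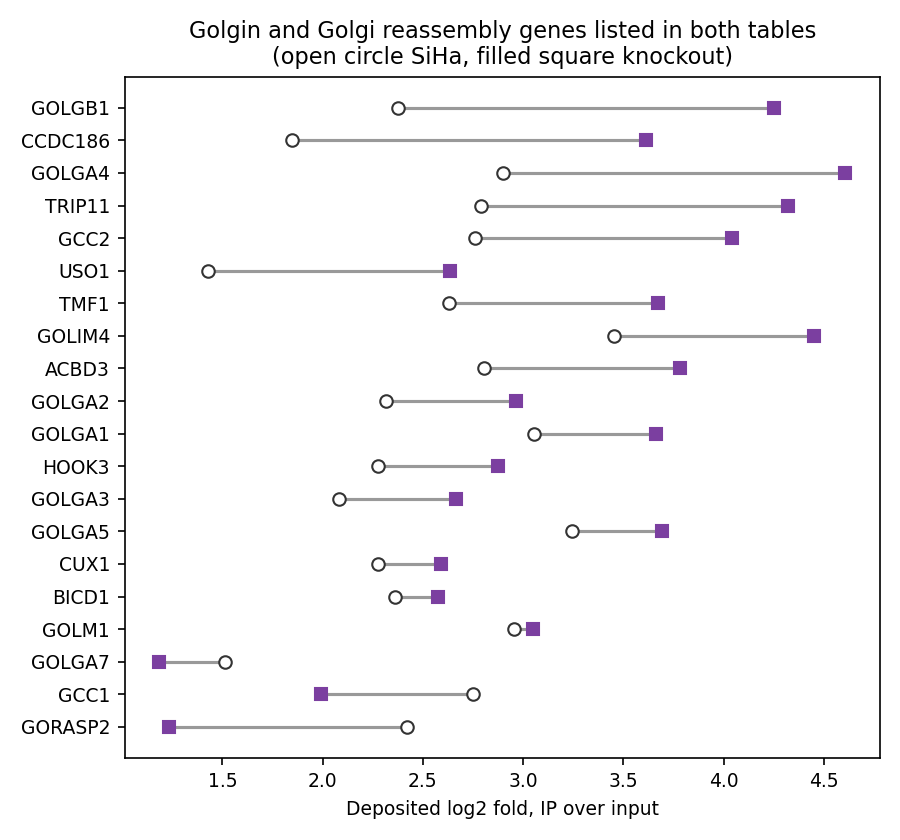
Deposited log2 fold of IP over input (x axis) in SiHa (open circles) and the YTHDF3 knockout (filled squares) for the 20 golgin and Golgi reassembly genes listed in both, ordered by the difference. The square lies to the right of the circle for 17 genes and to the left for GOLGA7, GCC1 and GORASP2.

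KTN1 belongs with the genes that shape the ER, and among those listed in both tables it had the lowest difference. Of 28 such genes 12 were listed in SiHa (42.9%, against 27.0% of all tested) and 6 in knockout cells (21.4%, against 21.2%). All 6 were shared, as were 89.0% of the whole knockout list. Without KTN1, 2 of the other 5 had a higher enrichment in knockout cells (60.1% over all shared genes), and 0 of them at least 2-fold (13.6% over all). RRBP1, the ribosome-binding protein p180 and, like kinectin, a long coiled-coil protein of ER sheets, had log2 folds of 1.83 in SiHa and 2.36 in knockout cells in the authors' deposited tables. Its IP level was 75.0 and 152 at inputs of 42.4 and 51.9. REEP5, a membrane-curving protein of ER tubules, stood at 1.82 and 1.28, and ATL2, a GTPase that fuses ER tubules, at 1.94 and 1.42 in the authors' deposited tables, with an adjusted p-value of 0.129 for ATL2 in knockout cells. CKAP4, the sheet protein CLIMP-63, and named after its value was seen, was listed in SiHa alone, with 1.11 on the log2 fold scale of the authors' deposited table.

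Of the genes for kinectin's partners, KIF5B, a kinesin heavy chain, was listed in both cell lines. Its input level was 14.2 in SiHa and 32.9 in knockout cells, and its IP level was 84.0 and 382. Its log2 fold was 3.57 in SiHa and 4.35 in knockout cells in the authors' deposited tables.

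Genes for the coats and cargo receptors of ER to Golgi traffic mostly had the higher enrichment in SiHa, as did GORASP2. Of 47 genes 20 were listed in SiHa (42.6%, against 27.0% of all tested) and 14 in knockout cells (29.8%, against 21.2%). The 12 listed in both were 60.0% of those listed in SiHa, close to the 57.1% of the whole list. Enrichment was higher in SiHa for 10 of these 12, against 39.9% of shared genes. Their IP levels did not go with that of GORASP2: 8 of 12 were higher in knockout cells (44.6% over all shared genes), with a median log2 ratio of 0.46. The median difference in log2 fold was 0.47. The largest belonged to SEC24D, a COPII coat subunit, at 1.10, with log2 folds of 2.83 and then 1.74 in the authors' deposited tables. Its IP level was 7.91 in SiHa and 19.7 in knockout cells, and its input level was 2.23 and 10.4, so both were higher in knockout cells. ARFGEF2, an exchange factor for ARF GTPases, followed at 0.84. ARCN1, a COPI subunit, had log2 folds of 2.96 and then 2.88 in the authors' deposited tables, which is nearly equal. The exception at the other end was MIA3 (TANGO1), a coiled-coil cargo receptor for collagen at ER exit sites, with log2 folds of 2.88 in SiHa and 3.87 in knockout cells in the authors' deposited tables.

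Multisubunit vesicle tethers that were listed in both cell lines lay near equal enrichment in the 2. Of 37 genes of the COG, GARP, TRAPP, NRZ and exocyst complexes, 16 were listed in SiHa (43.2%, against 27.0% of all tested) and 8 in knockout cells (21.6%, against 21.2%), all 8 shared. The other 8 listed in SiHa have no known fold in knockout cells. Among the 8 shared, the differences ran from -0.27 for ZW10 to 0.34 for EXOC6B, with 2 higher in knockout cells, against 60.1% of shared genes. A difference of 2-fold or more was seen for 0, against 13.6% toward knockout cells and 1.68% toward SiHa.

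In the ER lumen and translocon, SEC63, a J-domain partner of the translocon, resembled GOLGB1 in its difference between the cell lines, not in its folds. It had IP levels of 17.5 in SiHa and 60.7 in knockout cells at inputs of 16.8 and 17.0. Its log2 folds were 1.06 and 2.65 in the authors' deposited tables, with an adjusted p-value of 0.098 in SiHa. By fold it ranked 3592 of 3648 in SiHa, near the lowest listed. RPN2, a subunit of the oligosaccharyltransferase, resembled GORASP2, at IP levels of 614 and 360 and inputs of 244 and 253, and log2 folds of 2.34 and then 1.32 in the authors' deposited tables. The other 6 shared genes of that list, CALR and CANX among them, differed by less than 2-fold. Over all shared genes, 13.6% were at least 2-fold higher in knockout cells and 1.68% in SiHa. Of the 36 translocon and glycosylation genes, 8 were listed in SiHa (22.2%, against 27.0% of all tested). In knockout cells 9 of the 36 were listed, against 21.2% of all tested, and 8 were shared. Enrichment was higher in knockout cells for 3 of these 8, against 60.1% of shared genes. Of 28 ER chaperone and unfolded protein response genes, 13 were listed in SiHa (46.4%, against 27.0%) and 11 in knockout cells (39.3%, against 21.2%). All 11 were shared, which is 84.6% of those listed in SiHa, against 57.1% of the whole SiHa list. Of these 11, 6 were higher in knockout cells, near the 60.1% over all shared genes. A difference of 2-fold was seen for 0 (13.6% and 1.68% over all), with values from HSP90B1 at -0.93 to SEL1L at 0.69.

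**Figure D5:**
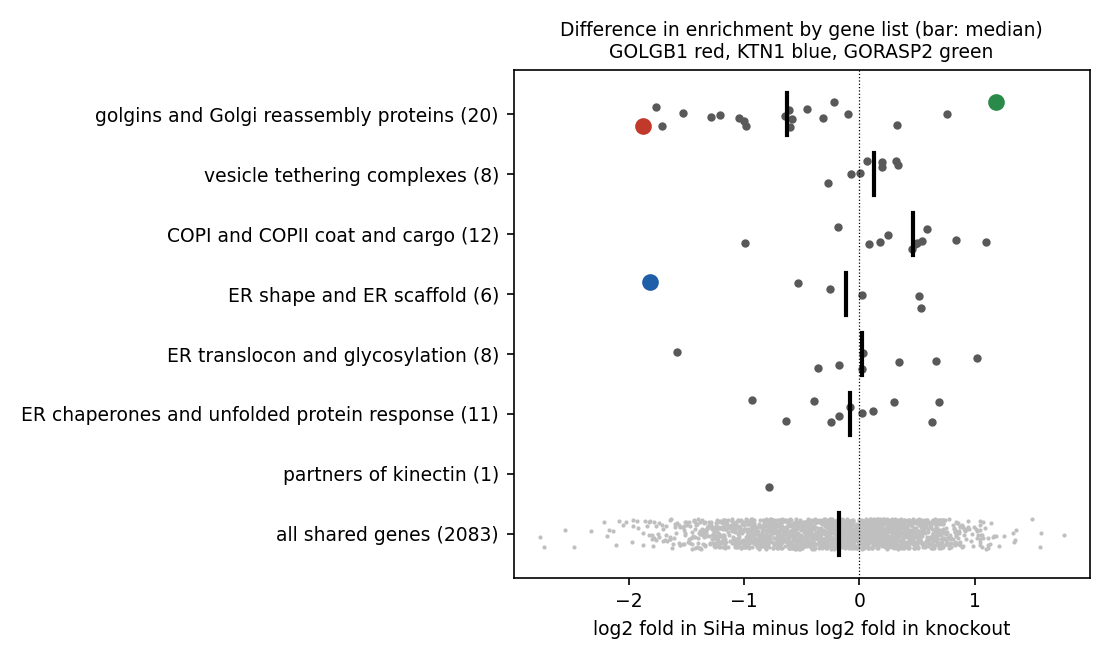
Difference in deposited log2 fold, SiHa minus knockout (x axis), for each gene listed in both tables, by gene list with the number of genes in brackets, where black bars are medians. The golgin list has its median at -0.63 and the coat and cargo list at 0.47, against -0.18 for all 2083 shared genes.

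The genes most like each member were found by the Euclidean distance over the 4 log2 levels, each library centred on the shared genes. Nearest to GOLGB1 were the protein kinase gene ROCK2 (distance 0.42) and SSB, the gene of the La RNA-binding protein (0.50), and then MIA3, C19orf53 and RSL1D1. SSB had IP levels of 75.3 and 233 in SiHa and knockout at inputs of 20.6 and 17.1. Nearest to KTN1 were CLIP1, a microtubule plus-end protein (0.82), and RDX, the gene of radixin (0.86), and then MORF4L2, HDLBP and CAST. These were less alike than the genes around the other members: CLIP1 had a difference in log2 fold of -0.93 in the authors' deposited tables, against -1.81 for KTN1. Nearest to GORASP2 were the heat shock gene HSPA1A (0.36), the isoleucyl-tRNA synthetase gene IARS (0.43), UBE4A, PTPRK and HSPA1B. HSPA1A and HSPA1B are near-identical copies, so reads may be split between them.

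In the order of differences among the 987 genes, GOLGB1 at -1.88 lay between SYCP2 (-1.96) and DEK (-1.84). KTN1 at -1.81 lay between ANP32E (-1.82) and SMC3 (-1.80), and GORASP2 at 1.19 between ANO6 (1.16) and PSMD10 (1.21), all from the authors' deposited tables. These steps are small, so the ranks of the members have little meaning beyond their place near the ends. GOLGB1 and KTN1 have long genes, with spans of 86.8 kb and 104 kb against a median of 53.9 kb over 2000 shared genes matched to RefSeq, and GORASP2 spans 38.7 kb. Across these genes, which are not replicates, the span had a Spearman rank correlation of 0.02 with the difference in log2 fold. The span runs from gene start to gene end with introns, so it is not transcript length, whose part was not tested.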

How the data were processed

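RNA recovered with a YTHDF3 antibody and input RNA were sequenced after a stranded mRNA library kit, per the labels' protocols. FastQC 0.11.7 and the genome builds GRCh38 and hg38 are named, per the submitters' processing notes. The aligner, the counter and the statistical test were not given in the sources used here. The authors deposited 1 table of enriched genes per cell line, with a level in 2 libraries (a signal of unstated unit, not whole numbers), a log2 fold, a p-value and an adjusted p-value. The constant in each log2 fold was the median of the fold minus log2 of the level ratio. The number of genes tested was the one that makes p times n over adjusted p whole, and this step was tested on simulated data. Genes were joined by Ensembl identifier in pandas 2.3.3, and locations came from RefSeq GRCh38.p14 by symbol.

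The members, gene lists and rules were chosen with earlier results of these data known. Named genes were the members, listed GOLG genes, the 5 nearest shared genes to each member, the rank neighbours of each member, and from each list the 4 largest SiHa folds, the 2 highest and 2 lowest differences and the most strongly recovered. Not all of these are reported here. Alternatives were the constants, centring, a pseudocount of 1, scaling to summed levels and an adjusted p-value under 0.05. Depth is unknown, so no interval is given. Protein sequences were not used here, so the planned comparison of protein composition was not made. No sequence is shown, because the data bear on no promoter.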

Additional observations from a re-analysis of the deposited data

How the results depend on the processing

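No paired analysis was possible because each group holds 1 library, and no replicate could be left out. The direction of the difference between the cell lines held for all 3 members under the 4 alternatives for it. In the order GOLGB1, KTN1 and GORASP2, the difference in log2 fold (SiHa minus knockout) was -2.07, -2.01 and 0.995 without the constants, -1.49, -1.43 and 1.57 with each table centred on its listed genes, and -1.72, -1.65 and 1.35 centred on the shared genes. With a pseudocount of 1 it was -1.85 for GOLGB1 and 1.17 for GORASP2. The log2 enrichment in SiHa was 1.37, 1.64 and 1.41 without the constant, 0.34, 0.61 and 0.38 centred on the table's median, and 2.34, 2.63 and 2.39 with the pseudocount. In the knockout it was 3.44, 3.65 and 0.42 without the constant, 1.83, 2.04 and -1.20 centred, and 4.19, 4.44 and 1.22 with the pseudocount. Centring thus put GORASP2 below the median listed gene in the knockout, by the construction of that scale. The log2 IP level ratio of knockout to SiHa was 2.10, 2.55 and -0.73 centred on the shared genes, 2.01, 2.46 and -0.83 as a share of summed levels, and 1.96, 2.42 and -0.84 with the pseudocount. The log2 input ratio was 0.44, 0.95 and 0.67 centred and 0.38, 0.89 and 0.61 as a share of summed levels, which reversed the sign for GOLGB1. It was 0.41 for KTN1 with the pseudocount. Centring on the shared genes, an alternative chosen after seeing the data, left 1 vesicle tethering gene with a higher fold in the knockout in place of 2. The rank correlation of gene span with the difference was -0.074 at or above the median IP level, against 0.02. The alternatives on protein composition were not run. All other counts of listed genes stayed within 1.5 times under an adjusted p-value below 0.05.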
